A study of Homo sapiens with 6 samples.

Results

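Metallothioneins are small proteins, unusually rich in cysteine, that hold zinc, copper and cadmium through those residues. They buffer the free metal of the cell and take up metal in excess. Zinc and cadmium raise the transcription of their genes through MTF1, a zinc-finger protein that binds short metal response elements in their promoters. The 8 genes described here are 7 metallothionein genes, MT1A, MT1E, MT1F, MT1G, MT1M, MT1X and MT2A, and MTF1 itself. They were found by gene symbol among the 57150 genes of an expression table, and each symbol had 1 row. A further 13 rows of the table belong to the metallothionein family, pseudogenes included.

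The study transfected K562, a human leukemia line of erythroid character, with siRNAs against both αCP1 and αCP2, RNA-binding proteins that recognise C-rich sequence, or with control siRNAs. Each group had 3 libraries, and RNA was taken 72 h after transfection. The table gives 1 FPKM value (fragments per kilobase of transcript, scaled to 1e6 mapped fragments) and 1 estimated count per gene for each group, in 2 columns labelled KD and CTRL. No spread between libraries could therefore be computed, no difference below has a replicate check, and no p-value is given. In bulk RNA, fewer cells that express a gene and less of its RNA per cell cannot be told apart.

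The RNA of the targets in this table did not bear out the labels. The paper itself reports depletion of both in mRNA and protein, with a representative Western blot, and protein cannot be seen here. PCBP1, which encodes αCP1, had an FPKM of 184.1 in the KD column and 187.8 in the CTRL column, and PCBP2, which encodes αCP2, had 530.8 and 342.4. The names KD column and CTRL column below are therefore labels only. Defining markers of the labelled line were also missing: 6 of 12 erythroid markers were listed at 0 in both columns, among them the transcription factors GATA1, KLF1 and TAL1, although the embryonic globin HBE1 reached 152.9 and 35.4. The summed FPKM of the 12 was 165.6 in the KD column and 39.2 in the CTRL column. Of 8 epithelial markers 2 were listed at 0, KRT19 and ESRP1, and the sum was 4370 and 3190, mostly from the keratins KRT8 and KRT18. The part of these markers in the results below was not tested.

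The transcripts of the metallothioneins are short and alike, which bears on how their reads can be told apart. In GENCODE release 44 on GRCh37, the coding part of each of the 7 genes was 183 or 186 nt long and held 20 cysteine codons. Identity between any 2 of these coding parts ranged from 88.5% for MT1F and MT1X to 94.5% for MT1A and MT1E. The coding parts of the 3 genes with reads and of MT1F, which had none, are shown as examples of this likeness. Capitals mark the bases that differ from MT2A, 14 in MT1E, 14 in MT1X and 16 in MT1F.
MT2A: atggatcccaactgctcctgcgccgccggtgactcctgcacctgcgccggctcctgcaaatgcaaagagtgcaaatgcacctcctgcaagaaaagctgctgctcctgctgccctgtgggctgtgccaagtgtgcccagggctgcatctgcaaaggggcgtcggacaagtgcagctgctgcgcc
MT1E: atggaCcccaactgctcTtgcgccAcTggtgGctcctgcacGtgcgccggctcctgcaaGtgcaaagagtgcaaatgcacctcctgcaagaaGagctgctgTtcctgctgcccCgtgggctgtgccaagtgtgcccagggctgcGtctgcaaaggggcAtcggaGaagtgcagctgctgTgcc
MT1X: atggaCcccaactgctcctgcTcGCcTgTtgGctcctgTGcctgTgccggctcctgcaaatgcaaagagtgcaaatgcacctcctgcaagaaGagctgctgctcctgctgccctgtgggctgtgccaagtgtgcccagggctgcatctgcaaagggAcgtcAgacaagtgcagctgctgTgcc
MT1F: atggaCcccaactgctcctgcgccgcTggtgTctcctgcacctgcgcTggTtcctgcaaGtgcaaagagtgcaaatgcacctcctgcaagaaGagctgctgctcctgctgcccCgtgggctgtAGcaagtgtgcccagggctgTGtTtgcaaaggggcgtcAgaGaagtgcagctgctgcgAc

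To see how far reads could be exchanged, every window of 100 nt, the length of a read, in 1 transcript of each gene (the 3-exon coding transcript of each metallothionein member) was compared with the transcripts of the rest of the family, allowing the 3 mismatches that the authors allowed. MT2A had 79 of 302 windows within this distance of a paralog or pseudogene (26.2%), MT1E had 93 of 605 (15.4%) and MT1X had 54 of 305 (17.7%). MT1F had 0 of 326. Between MT2A and MT1E no window was that close in either direction. MT2A and MT1X were closer, with 13.6% of the windows of MT2A and 13.4% of those of MT1X within 3 mismatches of the other. At this limit no window of MT2A could also be placed on MT1E, or the reverse, and part of the windows of MT1X and MT2A could be placed on both. Exact matches were rarer. Of the windows of MT2A and of MT1E, 0 occurred exactly in the transcripts of another gene, and none of MT1X did so in MT2A. Of the 305 windows of MT1X, 67 (22.0%) occurred exactly, on either strand, in transcripts of the gene ENSG00000259827, which the table lists at 0. In MTF1, 4 of 7838 windows occurred in the transcripts of another gene.

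**Figure D1:**
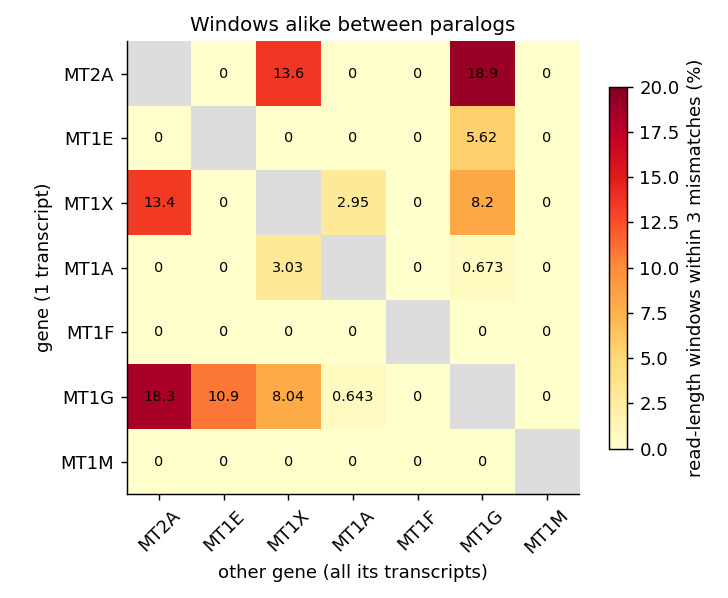
Share of read-length windows in a transcript of the row gene that lie within 3 mismatches of any transcript of the column gene, in percent, with the diagonal left grey. MT1G and MT2A are the closest pair, at 18.9% and 18.3%, MT2A and MT1E share none, and MT1F shares none with any other member.

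Among the metallothioneins, reads were assigned to 3 of 7 genes. MT2A, the ubiquitous type 2 isoform, was the most abundant in both columns. Its FPKM was 728.5 in the KD column and 1543 in the CTRL column, and it ranked at 215 and 82 among all genes of the table. MT1E followed with an FPKM of 553.7 in the KD column and 315.6 in the CTRL column, at ranks 265 and 354. MT1X was far lower, with an FPKM of 23.8 and 15.6 and ranks of 4345 and 5474. All 3 are type 1 or type 2 isoforms of similar protein sequence, and their order by FPKM was the same in both columns.

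MT1A, MT1F, MT1G and MT1M were listed at an FPKM of 0 and a count of 0 in both columns. If the estimated counts are taken as reads, a count of 0 allows up to 3 counts. That is 0.219 CPM (counts scaled to a column total of 1e6) in the KD column and 0.257 CPM in the CTRL column, and it covers counting error only. An FPKM of 0 in both columns was common in the table, at 59.6% of its genes. The other 13 family rows were also at 0, so that 17 of 20 family rows had no read. They include the coding genes MT1B and MT1H, MT3, which is known from the brain, and MT4, known from stratified epithelium. Of the 4 members at 0, MT1F had no window close to another family gene, MT1A had 3.70%, MT1M had 5.69% and MT1G had 18.3%. The 3 with reads had 15.4% to 26.2%, and the part of this similarity in the values of 0 was not tested.

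**Figure D2:**
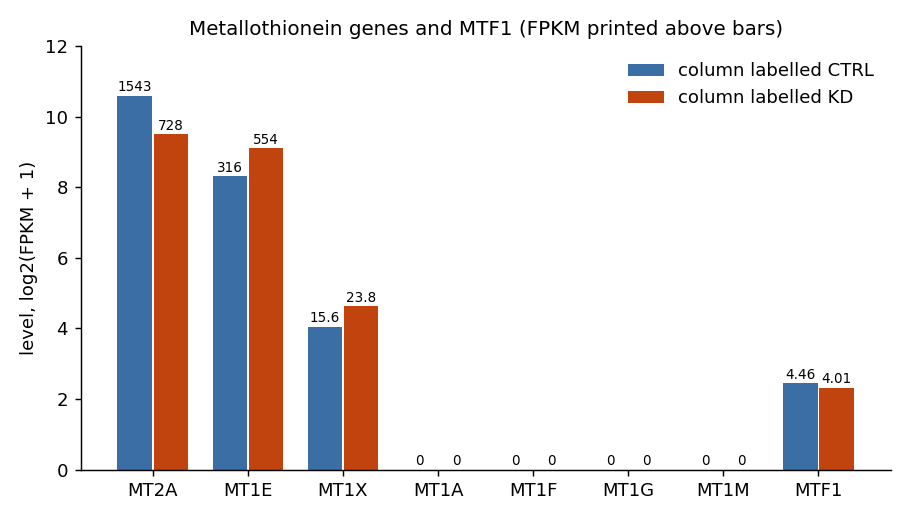
Level of each member as log2(FPKM + 1) in the CTRL column (blue) and the KD column (orange), with 1 value per column and no error bar, and the FPKM printed above each bar. MT2A is lower and MT1E and MT1X are higher in the KD column, 4 metallothioneins are at 0, and MTF1 is near 4 in both.

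On chromosome 16 the metallothioneins form 1 cluster. The table places MT2A at 56642110 to 56643409, MT1E at 56659386 to 56661024, MT1M at 56662970 to 56667898, MT1A at 56672577 to 56673999, MT1F at 56691605 to 56694610, MT1G at 56700642 to 56701977 and MT1X at 56716335 to 56721964, all in hg19. Each has 3 exons in the transcript used, and MT1G is the only one of the 7 on the minus strand. MTF1 lies apart, on chromosome 1 from 38275238 to 38325292 on the minus strand, with 11 exons. The 3 metallothioneins with reads are not next to each other. MT2A and MT1E, near 1 end, are separated by the pseudogene MT1L, and 9 rows at 0 stand between MT1E and MT1X at the other end.

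Of the 10 genes that flank the cluster, chosen as neighbours and unrelated in function, 8 passed a filter on low values (a mean FPKM of the 2 columns of at least 1), and the other 2, SLC12A3 and CETP, were listed at 0. None of the 8 was past a log2 ratio of 1 in FPKM, up or down. Their median log2 ratio was -0.10, from -0.96 for BBS2, a gene of the primary cilium, to 0.42 for NUP93, a nuclear pore protein that adjoins MT1X. As shares of all counts, BBS2 was past that size at -1.48 (95% exact binomial interval -1.88 to -1.09), and NUP93 turned to -0.22 (-0.33 to -0.11). Division by the column totals alone shifts every log2 ratio of counts by -0.23, and the counts of NUP93 were 1397 and 1388. In count shares the median of the 8 was -0.43, against -0.21 over all tested genes on that scale.

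**Figure D3:**
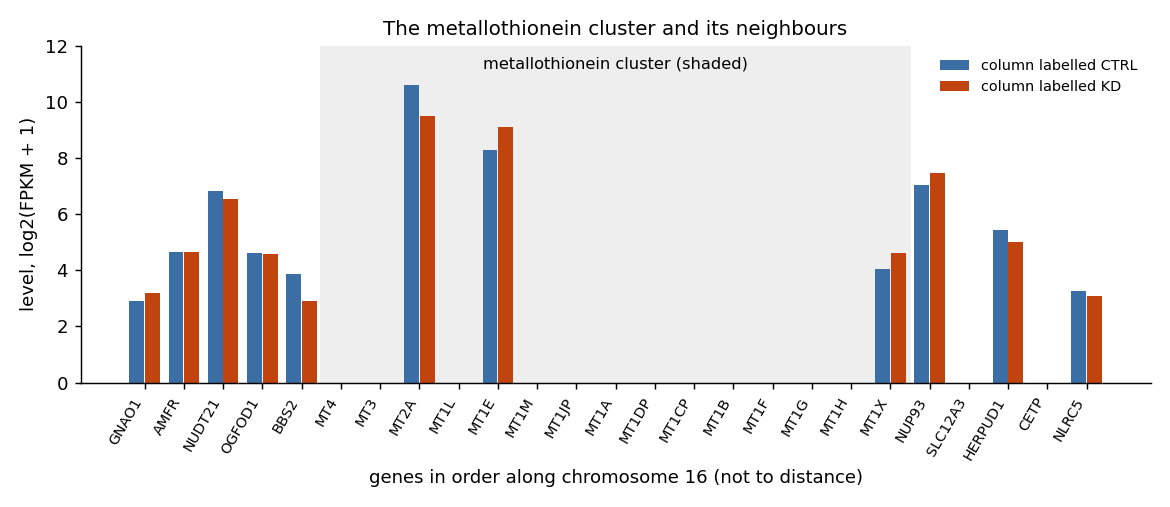
Level as log2(FPKM + 1) of the metallothionein cluster (shaded) and its neighbours, in their order along chromosome 16 and not to distance, in the CTRL column (blue) and the KD column (orange). Within the cluster only MT2A, MT1E and MT1X have bars, and MT2A is the only 1 of these 3 with a lower bar in the KD column.

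The study set αCP1/2 siRNAs against control siRNAs. Since the RNA of the targets did not bear out the labels, the values below compare the KD column with the CTRL column and not depleted cells with control cells. Ratios are log2 of (FPKM + 1) in the KD column over that in the CTRL column, a scale that understates the change of low genes. The median over the 13741 genes that passed the filter was 0.01. Of the 8 members 4 passed, MT2A, MT1E, MT1X and MTF1, and a log2 ratio of at least 1 in size, up or down, was taken as past the threshold.

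MT2A was lower in the KD column, and MT1E and MT1X were higher. MT2A had a log2 ratio of -1.08, which is 0.472 times its level in the CTRL column, and was the only member past the threshold. Among all tested genes 3.27% were lower and 8.51% were higher by this threshold. With 1 of 4 members lower and 0 of 4 higher, the small number of members leaves little to read against that background. In order of log2 ratio, 355 of the 13741 genes were as low as MT2A or lower (2.58%).

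A count made after its values were seen found 140 genes with at least the mean FPKM of MT2A, MT2A included. By FPKM, 31 of them were higher by a log2 ratio of 1 or more and 3 were lower. The share of lower genes was near the 3.27% of all tested genes, and the share of higher genes was above their 8.51%. MT2A, whose level set the group, is 1 of the 3 lower genes. Besides MT2A the 3 were RN7SL2, a 7SL RNA of the signal recognition particle, at an FPKM of 471.4 and 3049, and its pseudogene relative RN7SL593P, at 763.5 and 1779.

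MT1E had a log2 ratio of 0.81, a level 1.75 times that in the CTRL column, which did not reach the threshold. A ratio as high or higher was found for 12.8% of the tested genes. MT1X had a log2 ratio of 0.58, 1.53 times the level in the CTRL column, and 19.7% of the tested genes were as high. Both type 1 genes thus lay on the side of the zero line opposite to MT2A, and neither was past the threshold.

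**Figure D4:**
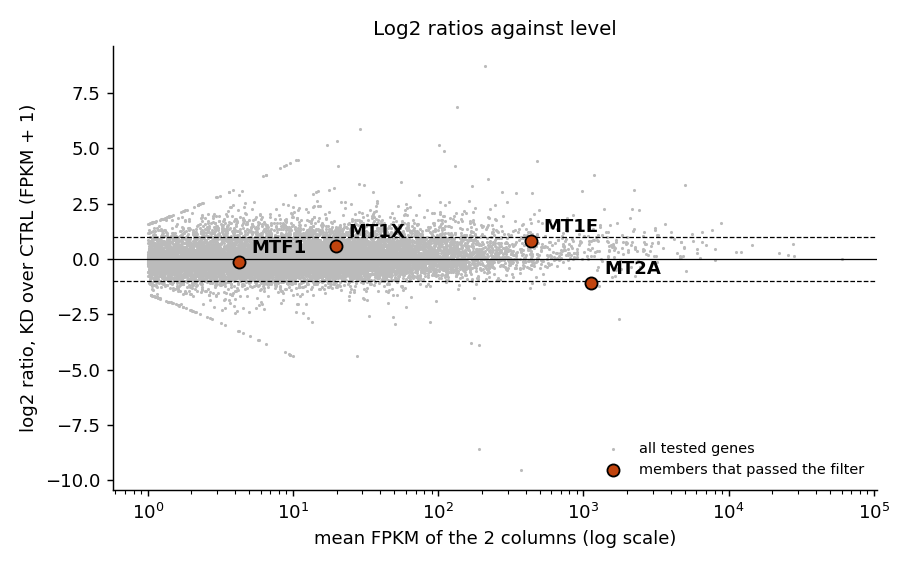
Log2 ratio of the KD column over the CTRL column against the mean FPKM of the 2 columns (log axis) for the 13741 tested genes (grey), with the 4 members that passed the filter in orange. Dashed lines mark log2 ratios of 1 and -1, and MT2A, at -1.08, is the only member outside them.

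The depth behind these values differed widely between members. The estimated counts, which sum to 13699340 in the KD column and 11680567 in the CTRL column, were 2761 and 5431 for MT2A. In the paper every single library has more mapped read pairs than either total, and how the counts were derived is not given. The intervals below treat the counts as reads and hold only as far as that is so. MT1E had 2984 counts in the KD column and 1613 in the CTRL column. MT1X had 82 and 57. As shares of the column totals, with 95% exact binomial intervals that cover counting error only, the log2 ratio was -1.21 for MT2A (-1.27 to -1.14) and 0.66 for MT1E (0.57 to 0.75). For MT1X it was 0.29, with an interval of -0.21 to 0.81 that included equal shares on this scale. Division by the totals shifts that interval by -0.23, which is larger in size than its lower end. Whether it includes equality thus depends on the scale as well as on depth. An interval wholly below equal shares was found for 43.7% of the tested genes and one wholly above for 23.8%, so an interval that leaves out equal shares is common here. Both percentages include the shift of -0.23 that division by the totals brings.

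Scaling mattered for these values. Over the 12077 genes with more than 20 counts in each column, 1 unit of FPKM stood for the same number of counts in both columns (median ratio 1.002), while the totals differ. For the median gene the counts thus already had the scale of the FPKM between the columns. Division by the totals adds -0.23 to every log2 ratio of counts. Count shares, which replace FPKM by counts over the totals and carry no pseudocount, could be formed for 13626 of the tested genes. Their median log2 ratio was -0.21, against 0.01 with FPKM, and 6.83% of genes were higher and 9.73% lower by a log2 ratio of 1 or more. On this scale, with that shift in it, 41.2% of the genes past the threshold were higher against 72.2% with FPKM. Relative to that median the log2 ratios of count shares were -0.998 for MT2A, 0.87 for MT1E and 0.50 for MT1X. MT2A was therefore just short of the threshold, with no member past it, and the order of the 3 genes was unchanged.

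The ratio of 2 genes within a column needs no scaling between the columns. MT1E had 0.760 times the FPKM of MT2A in the KD column and 0.205 times in the CTRL column, a difference of 1.89 in log2. In counts the ratio of MT1E to MT2A was 1.08 (95% interval 1.03 to 1.14) in the KD column and 0.297 (0.281 to 0.314) in the CTRL column, a difference of 1.86. For MT1X over MT2A the FPKM ratios were 0.0327 and 0.0101, a difference of 1.70. For MT1X over MT1E they were 0.0430 and 0.0494, and the intervals of the count ratios, 0.0218 to 0.0342 and 0.0266 to 0.0460, overlapped. The contrast was thus measured best between MT2A and MT1E. Since MT2A itself was lower, a gene with equal levels in both columns would also rise relative to it. The ratio to MT2A therefore says little of MT1X. At 82 and 57 counts, the overlap of intervals does not show that MT1X and MT1E moved alike.

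The same contrast appears in the makeup of the metallothionein reads. MT2A took 47.4% of the metallothionein counts in the KD column (95% exact binomial interval 46.1 to 48.7%) and 76.5% in the CTRL column (75.5 to 77.5%). MT1E took 51.2% (49.9 to 52.5%) and 22.7% (21.7 to 23.7%). MT1X took 1.41% and 0.803%. Per length, by FPKM, MT2A held 55.8% and 82.3% of the total and MT1E 42.4% and 16.8%, so MT2A was the leading isoform in both columns on that scale and MT1E led in counts in the KD column.

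A sum of counts over the 7 metallothioneins does not depend on how reads were divided among them, while a sum of FPKM does, since the genes differ in length. The summed FPKM was 1306 in the KD column and 1874 in the CTRL column, a log2 ratio of -0.52. The summed counts were 5827 and 7101, or 425.3 and 607.9 CPM, and gave -0.52 as well (-0.57 to -0.47). Relative to the median of all genes on that scale, the summed log2 ratio was -0.31. MT2A was lower by more FPKM than MT1E and MT1X together were higher.

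**Figure D5:**
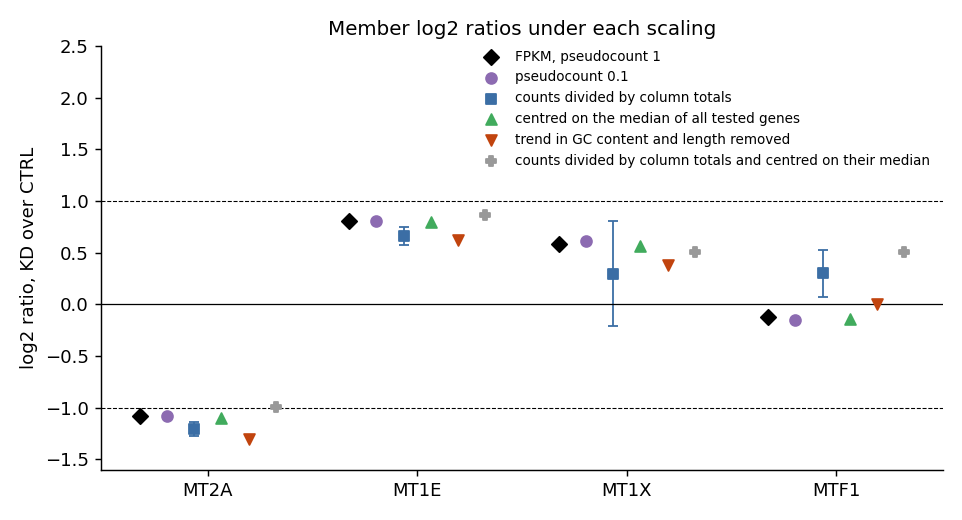
Log2 ratio of the KD column over the CTRL column for the 4 members that passed the filter, under the FPKM scale (diamonds) and 5 alternatives, with 95% exact binomial intervals, which cover counting error only, on the count shares (squares). MT2A lies below -1 except with count shares centred on their median (crosses), at -0.998, MT1E stays between 0 and 1, and MTF1 lies on both sides of 0.

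MTF1 (ENSG00000188786), the factor that senses zinc and acts on these promoters, was expressed at a low level. Its FPKM was 4.01 in the KD column and 4.46 in the CTRL column, a log2 ratio of -0.12. Its counts went the other way, with 396 and 274, and the log2 ratio of count shares was 0.30 (0.08 to 0.53), or 0.51 relative to the median of all genes. The FPKM of MTF1 stood for 1.61 times as many counts in the KD column as in the CTRL column, and 0.911% of the 12077 genes had a ratio as high, so the direction of MTF1 depends on the scale. For MT2A, MT1E and MT1X that ratio was 1.08, 1.05 and 0.941.

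Metal response elements were looked for in the 250 bases before the start site, in the RefSeq promoter table of GRCh38.p14, whose coordinates differ from those of hg19 above. Entries were found for 3 of the 8 members, MT2A, MT1X and MTF1. The core was searched as TGCACNC and TGCGCNC on both strands, 2 forms that exclude each other at a given position of a strand. Of 35116 promoters 24.8% had at least 1 core. MT2A (plus strand, chr16:56608334-56608583) had 7 and MT1X (plus strand, chr16:56682220-56682469) had 4, and 0.031% and 0.37% of promoters had as many. They are shown because MTF1 acts through such elements, with the cores in capitals and the last base next to the start site.
MT2A: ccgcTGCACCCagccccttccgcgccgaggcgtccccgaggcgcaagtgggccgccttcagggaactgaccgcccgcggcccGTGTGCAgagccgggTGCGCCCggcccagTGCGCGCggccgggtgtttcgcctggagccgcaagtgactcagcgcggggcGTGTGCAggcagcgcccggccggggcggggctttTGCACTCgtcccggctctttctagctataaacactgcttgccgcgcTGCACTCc
MT1X: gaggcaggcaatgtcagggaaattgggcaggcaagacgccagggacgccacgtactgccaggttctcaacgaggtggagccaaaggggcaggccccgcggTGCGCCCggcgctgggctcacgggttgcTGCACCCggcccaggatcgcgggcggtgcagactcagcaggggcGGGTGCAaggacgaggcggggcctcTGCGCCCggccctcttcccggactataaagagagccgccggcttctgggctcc

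Of the 7 cores of MT2A, 5 read in the direction of the gene, and of the 4 of MT1X, 3 did. Both promoters also held TATAAA, the letters of a TATA box, on the plus strand, as did 6.80% of all promoters read in the direction of their gene. The promoter of MTF1 held 0 cores. The number of cores did not order the family genes by level: MT1H, listed at 0 in both columns, had 8, and MT1B and MT4, also at 0, had 3 each. A match describes letters only and says nothing of binding by the factor.

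The zinc transporters, which move zinc out of or into the cytosol beside the metallothioneins that buffer it, gave no common direction. SLC30A1, the exporter of the plasma membrane and another known target of MTF1, had an FPKM of 12.7 in the KD column and 10.5 in the CTRL column, a log2 ratio of 0.25. Its log2 ratio of count shares was 0.04, with an interval of -0.11 to 0.18 that included equal shares. Both carry the shift of -0.23 from the totals, which is larger in size than either end of that interval. Whether it includes equality thus depends on the scale. Of 10 exporters 5 passed the filter, with 0 higher and 1 lower by the threshold and a median of -0.07, which was -0.28 in count shares and 0.15 after subtraction of a fitted trend with GC content and transcript length. The 1 was SLC30A7, which loads zinc into the Golgi, at 4.66 and 11.1 FPKM, a log2 ratio of -1.10, and it was at -0.79 after that subtraction. Of 14 importers 11 passed, with 0 past the threshold in FPKM in either direction and a median of 0.36. That median was 0.07 in count shares and -0.23 with the fit subtracted, so its direction depends on the scale. In count shares SLC39A10, a zinc importer of the plasma membrane, was past the threshold at -1.16 (-1.40 to -0.93), from -0.73 in FPKM. The shift of -0.23 from the totals is part of that change.

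Copper is the other physiological metal that these proteins bind. Of 8 copper-handling genes 6 passed the filter, with 1 higher and 0 lower by the threshold and a median of 0.05, which was -0.19 in count shares. The 1 was COX17, a copper chaperone of the mitochondria, with an FPKM of 134.8 in the KD column and 55.2 in the CTRL column, a log2 ratio of 1.27. Its log2 ratio of count shares was 0.94 (0.75 to 1.14), below the threshold on that scale, with the shift of -0.23 from the totals in it. ATOX1, a copper chaperone of the cytosol, went from 0.93 in FPKM to 1.05 with the fit subtracted.

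Genes of the oxidative and cadmium stress response, some of which cadmium induces as it does the metallothioneins, were mostly lower in the KD column. All 10 passed the filter, 9 had a log2 ratio below 0, and 4 were lower by the threshold, with 0 higher. Over all tested genes 3.27% were lower and 8.51% were higher by it. Their median log2 ratio was -0.64, against 0.01 over all tested genes. TXNRD1, cytosolic thioredoxin reductase, had an FPKM of 80.6 in the KD column and 274.1 in the CTRL column, a log2 ratio of -1.75. SLC7A11, the cystine importer, was at 0.809 and 4.503, a log2 ratio of -1.61. GCLC and GCLM, the subunits of the rate-limiting enzyme of glutathione synthesis, had log2 ratios of -1.07 and -1.12, which became -0.95 and -0.87 once the fitted trend with GC content and transcript length was subtracted. HMOX1, heme oxygenase, crossed the threshold the other way, from -0.67 to -1.08. The 1 gene of the list above 0 was KEAP1, which holds the transcription factor NRF2 in check, at 0.23, and it was at -0.28 after the subtraction. The median of the list was -0.90 in count shares, against -0.21 over all tested genes on that scale. With the fit subtracted it was -0.87, without SRXN1, for which the fit gave no value.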

How the data were processed

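RNA-seq libraries of K562 cells, 3 transfected with αCP1/2 siRNAs and 3 with control siRNAs, were mapped by the authors with TopHat 1.4.1 to hg19 and Ensembl release 65, and FPKM values were calculated by the authors with Cuffdiff 2.2.0. The deposited table also holds estimated counts, which need not be whole and which were rounded for intervals, and fold changes, p-values and FDR values of the authors' own comparison, which were not used. How the 3 libraries behind a column were joined is not given in the sources used here. Groups came from the sample labels, and the linear model planned for separate libraries could not be run. Members and lists were chosen with earlier results of these data known. All members, PCBP1, PCBP2, SLC30A1 and list genes past a log2 ratio of 1 are named, with a few others chosen after their values were seen.

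Alternatives were a pseudocount of 0.1 in place of 1, counts divided by column totals, centring, other filters, and subtraction of a fit, quadratic in the GC percentage and log2 length of the longest transcript, (13298 genes; all 8 members had both). Sequences came from GENCODE release 44 on GRCh37, the sequence of hg19, and from RefSeq. The exact binomial interval was tested on simulated counts that held counting error only. That test cannot show how well it covers the estimated counts used here. Computation used Python 3.11.15 with biopython 1.88, scipy 1.17.1, pandas 2.3.3, numpy 2.4.6 and matplotlib 3.10.9.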

Additional observations from a re-analysis of the deposited data

How the results depend on the processing

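MT2A was lower and MT1E and MT1X were higher in the KD column under each of the 5 alternatives run for each. Counts divided by column totals gave a log2 ratio of -1.21 for MT2A, 0.66 for MT1E and 0.30 for MTF1, which was at -0.12 with FPKM. With the GC and length trend subtracted, the values were -1.30 for MT2A and 0.62 for MT1E. Count shares centred on their own median, chosen after seeing the data, gave -0.998 for MT2A, 0.51 for MTF1 and -0.31 for the sum. Each of these values moved by more than 1 arm of the counting interval. Division by the totals shifts count shares by -0.23 before centring, and the cause of the other differences was not tested. Exactly 1 member was past the threshold with a pseudocount of 0.1, no filter, a mean FPKM of at least 5, count shares or the trend removed. With centred count shares 0 members were past it. The 2 changes of filter could not alter the count and are no check of it. Without a filter the added members were at 0 in both columns, and the filter at 5 left out only MTF1. At the level of MT2A a smaller pseudocount changes little. The summed log2 ratio was -0.52 with count shares before centring and with all family rows summed. The added family rows were all at 0, so the latter sum could not differ and is no check. The ratio of MT1E to MT2A in counts was also added after seeing the data.

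No paired analysis was possible because each column holds a single value for a gene, and leaving out single libraries was not run for the same reason. Each member had 1 row, so summing rows gave no further value. Depth limits MT1X, at 82 and 57 counts, and the 4 genes at 0.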
